A study of Mus musculus with 22 samples.

Results

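The 10 genes described here control or form the mTOR pathway: Ddit4 and Ddit4l (also called REDD1 and REDD2), the kinase Mtor, its partners Rptor and Rictor, the brake genes Tsc1 and Tsc2, the GTPase Rheb, and the sestrins Sesn1 and Sesn3. They were found by symbol among the 39056 genes of the count table, and all 10 were among the 14072 genes that passed the filter on low counts. Ddit4 and Ddit4l were picked because their levels differed between treated and Control mice, so that comparison is given for the 10 genes as a description, without a p-value.

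RNA was measured in the mouse prefrontal cortex (PFC) of 11 male mice aged 8 to 12 weeks on a C57BL/6J background, all of which carried 2 transgenes, tetO-EGFP/Rpl10a and CaMKIIα-tTA, so that cells in which the CaMKIIα promoter is active make an EGFP-tagged ribosomal protein. Each mouse gave 1 TRAP library, the RNA pulled down with tagged ribosomes, and 1 total-RNA library of the whole PFC sample. The labels do not name the mouse, so the TRAP and total-RNA libraries were paired by the order of the samples. Control mice (3) received saline, EtOH mice (4) received ethanol at a final dose of 2 g/kg per day, and EtOH + ABT-888 mice (4) received the same ethanol plus the PARP inhibitor ABT-888 at 25 mg/kg on day 4 only. Injections were given 2 times a day for 4 days, tissue was taken 2 h after the last one, and there was no group with ABT-888 alone.

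mTOR is a kinase that works in a pair of complexes. mTORC1, which contains Rptor, raises protein synthesis and holds back autophagy when amino acids, energy and growth factors are plentiful, and mTORC2, which contains Rictor, phosphorylates Akt and related kinases. Rheb switches mTORC1 on, the TSC complex switches Rheb off, and Ddit4, Ddit4l and the sestrins are stress-responsive inhibitors that act above these steps. In brain, Ddit4 is known as a gene induced by glucocorticoids, hypoxia and other stresses.

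Ddit4 (ENSMUSG00000020108) lies on the minus strand of mm10 chr10:59949669-59951834, and Ddit4l (ENSMUSG00000046818) on the plus strand of chr3:137621612-137628333. Their promoters are shown because they are the pair of genes with the largest log2 fold changes against Control among the 10, except in EtOH + ABT-888_TRAP, where Rheb (-0.68) lay slightly farther from 0 than Ddit4 (0.65). Each run is 300 bases, from 250 before to 50 after the start given by RefSeq for GRCm38.p6, at chr10:59951721-59952020 (minus strand) for Ddit4 and chr3:137623422-137623721 (plus strand) for Ddit4l. Both RefSeq starts lie inside the gene spans given above. In Ddit4, capitals mark ACGTG, the core of a hypoxia response element, and ATTGG, the reverse complement of the CCAAT box. In Ddit4l, capitals mark the TATA box letters, TATAAA.
Ddit4: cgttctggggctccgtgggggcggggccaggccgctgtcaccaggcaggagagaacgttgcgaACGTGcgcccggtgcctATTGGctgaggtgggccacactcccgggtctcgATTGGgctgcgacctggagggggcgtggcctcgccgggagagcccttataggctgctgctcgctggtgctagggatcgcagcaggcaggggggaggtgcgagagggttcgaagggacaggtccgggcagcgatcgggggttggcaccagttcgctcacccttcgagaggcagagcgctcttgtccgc
Ddit4l: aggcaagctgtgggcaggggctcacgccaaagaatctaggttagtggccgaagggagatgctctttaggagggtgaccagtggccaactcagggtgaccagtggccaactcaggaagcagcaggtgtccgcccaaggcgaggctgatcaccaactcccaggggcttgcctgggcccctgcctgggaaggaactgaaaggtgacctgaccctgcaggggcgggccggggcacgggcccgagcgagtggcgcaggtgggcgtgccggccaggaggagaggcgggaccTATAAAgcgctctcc

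Both strands were searched for 9 motifs. A full glucocorticoid response element (AGAACA and its inverted copy, 3 bases apart) was in neither window, and it was in 0.00913% of the 32851 promoters in the RefSeq table. The ACGTG core starts at position -187 of Ddit4 and was in 19.6% of all promoters, the CCAAT letters start at -170 and -137 and were in 37.4%, and TATAAA, which starts 36 bases after the Ddit4l start, was in 13.6%. None of AGAACA alone (19% of promoters), GTAAACA (a FoxO site, 3.65%), TGACGTCA (a cAMP response element, 1.79%), CACGTG (an E-box, 7.15%) or TGATGCAA (an ATF4 site, 0.895%) was in the Ddit4 or the Ddit4l window. CACGTG contains ACGTG, so these searches overlap. Of the other 8 genes, Sesn1 held GTAAACA, 23 bases after one of its RefSeq starts, and Rheb held CACGTG at -96.

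Counted reads ranged from 6570957 to 22002618 in TRAP libraries and from 22132534 to 32421392 in total-RNA libraries, and levels are given as CPM, each library's counts scaled to a common total after correction by the TMM factors of edgeR. Markers of astrocytes, microglia, oligodendrocytes and endothelial cells (6 genes each) were lower in Control_TRAP than in Control_total-RNA for 24 of 24 genes. Of 6 excitatory neuron markers, 4 were lower in Control_TRAP, Camk2a was at 1883 CPM against 2092 CPM, and Nrgn was higher. The 7 markers of striatal projection neurons, among them Drd2 and Penk, were all higher in Control_TRAP, with a summed level of 9451 to 11310 CPM against 1126 to 1368 CPM. The summed level of 6 interneuron markers was also higher in Control_TRAP, at 1827 to 1913 CPM against 802.1 to 865.3 CPM, where Gad1, Gad2 and Slc32a1 were called higher and Pvalb lower. In TRAP against total-RNA, a difference in cell makeup and one in ribosome binding therefore cannot be told apart. In bulk samples such as these, fewer cells of a type and less RNA per cell cannot be told apart.

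**Figure D1:**
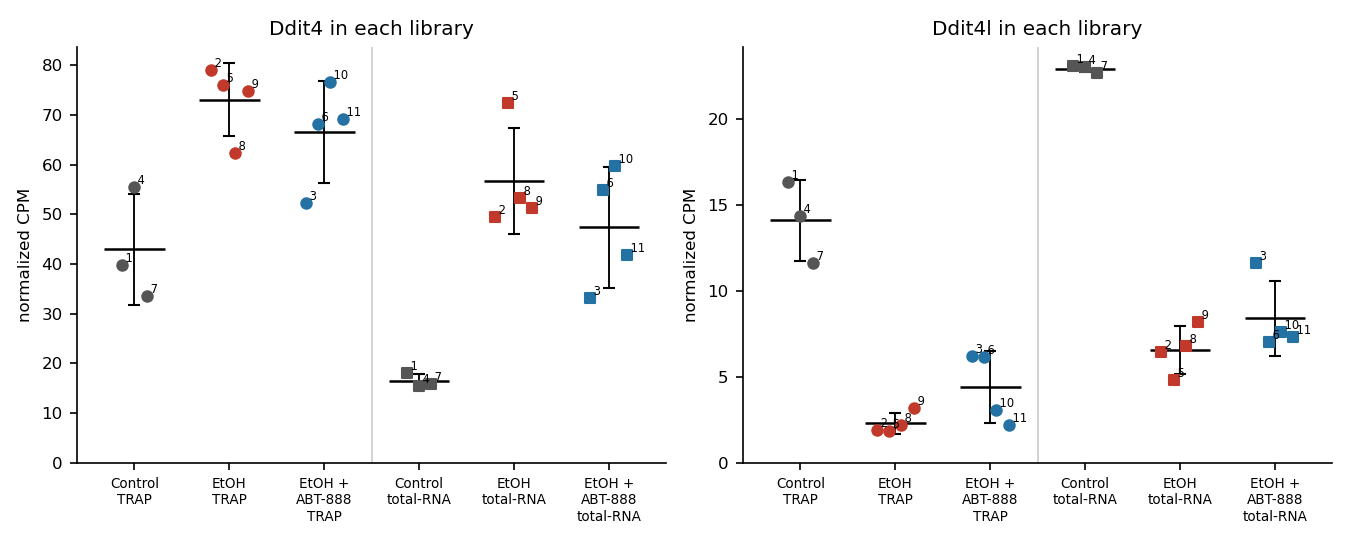
Normalized CPM of Ddit4 (left) and Ddit4l (right) in the 22 libraries, by group. Points are libraries numbered by mouse (circles TRAP, squares total-RNA), horizontal lines are group means and bars are ± 1 SD (n = 3 for Control, 4 for the others). Every treated total-RNA library lies above the Control_total-RNA range of 15.37 to 18.11 CPM for Ddit4, and every treated library lies below its Control range for Ddit4l.

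Ddit4 was higher and Ddit4l lower in treated than in Control mice, in both RNA pools. In total-RNA, Ddit4 was at 18.11, 15.37 and 15.83 CPM in Control mice 1, 4 and 7. It was at 49.52, 72.44, 53.35 and 51.2 CPM in EtOH mice 2, 5, 8 and 9. It was at 33.08, 54.87, 59.81 and 41.74 CPM in EtOH + ABT-888 mice 3, 6, 10 and 11. All 8 treated libraries were thus above all 3 Control libraries, with mouse 5 the highest and mouse 3 the lowest of the 8. The log2 fold change against Control_total-RNA was 1.79 ± 0.15 (SE), or 3.45-fold, in EtOH_total-RNA and 1.53 ± 0.20, or 2.89-fold, in EtOH + ABT-888_total-RNA.

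In TRAP, Ddit4 began from a higher level. It was at 39.81, 55.39 and 33.56 CPM in Control_TRAP, at 78.95, 76.08, 62.41 and 74.87 CPM in EtOH_TRAP, and at 52.32, 68.15, 76.61 and 69.1 CPM in EtOH + ABT-888_TRAP (mice in the same order). EtOH_TRAP did not overlap with Control_TRAP, while mouse 3 of the EtOH + ABT-888 group was below Control mouse 4. The log2 fold changes were 0.79 ± 0.18, or 1.72-fold, for EtOH and 0.65 ± 0.21, or 1.57-fold, for EtOH + ABT-888. The lowest count of Ddit4 in any library was 373 reads, so counting error was small beside the spread between mice.

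Ddit4l, the paralog of Ddit4, differed in the other direction. In Control_total-RNA it was at 23.1, 23.03 and 22.73 CPM. It was at 6.451, 4.821, 6.802 and 8.188 CPM in EtOH_total-RNA, and at 11.66, 7.038, 7.596 and 7.334 CPM in EtOH + ABT-888_total-RNA. The 3 Control libraries, with 556 to 728 reads each, lay closer together than counting error alone would usually give, so their spread is a poor guide to that between mice. All 8 treated libraries were below them, with mouse 3 the highest of the 8. The log2 fold changes were -1.81 ± 0.17 in EtOH, or 3.5-fold lower, and -1.45 ± 0.19 in EtOH + ABT-888, or 2.73-fold lower.

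In TRAP the difference of Ddit4l from Control was wider. It was at 16.33, 14.4 and 11.66 CPM in Control_TRAP, at 1.892, 1.857, 2.212 and 3.196 CPM in EtOH_TRAP, and at 6.233, 6.154, 3.06 and 2.181 CPM in EtOH + ABT-888_TRAP. Neither treated group overlapped with Control_TRAP, and mice 3 and 6 were above every EtOH_TRAP library while mice 10 and 11 were within their range. These levels rest on few reads, 26 to 47 per library in EtOH_TRAP and 35 to 76 in EtOH + ABT-888_TRAP, against 153 to 260 in Control_TRAP. The log2 fold changes were -2.60 ± 0.29, or 6.08-fold lower, for EtOH and -1.69 ± 0.37, or 3.23-fold lower, for EtOH + ABT-888.

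Set against each other per kb of exon, the balance of the pair shifted toward Ddit4. The ratio of Ddit4 to Ddit4l was 1.11 to 1.30 in Control_total-RNA and 4.05 to 6.39 in Control_TRAP. It was 10.4 to 25.0 in EtOH_total-RNA and 38.9 to 69.3 in EtOH_TRAP. In EtOH + ABT-888 it was 4.71 to 13.1 in total-RNA and 13.9 to 52.7 in TRAP. Mouse 3 had the lowest ratio of its group in both pools, with the lowest Ddit4 and the highest Ddit4l of its group in each.

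Among the 8 other genes, Sesn1 had the largest difference from Control in 3 of the 4 comparisons, and Rheb in the fourth. Sesn1, a p53 and FoxO target whose product restrains mTORC1 when leucine is scarce, was at 61.53, 56.98 and 59.17 CPM in Control_total-RNA. It was at 89.9, 106.2, 110.9 and 107.4 CPM in EtOH_total-RNA and at 74.58, 109.5, 124.5 and 101.4 CPM in EtOH + ABT-888_total-RNA. All 8 treated total-RNA libraries were above the Control libraries, with log2 fold changes of 0.81 ± 0.11 for EtOH and 0.79 ± 0.16 for EtOH + ABT-888. In TRAP the treated libraries spread more, from 50.28 CPM (EtOH mouse 8) to 118.0 CPM (EtOH mouse 9) against 51.87 to 57.77 CPM in Control_TRAP. The log2 fold changes there were 0.57 ± 0.24 and 0.54 ± 0.19, and mouse 8 was below all Control_TRAP libraries.

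Sesn3, a sestrin that is the most abundant of the 10 genes in CPM, differed less from Control. It was at 333.0, 321.6 and 331.5 CPM in Control_total-RNA, at 357.8, 452.3, 390.2 and 441.3 CPM in EtOH_total-RNA, and at 363.5, 395.8, 508.3 and 423.2 CPM in EtOH + ABT-888_total-RNA. Both treated groups were above Control, with log2 fold changes of 0.32 ± 0.10 and 0.37 ± 0.12. In TRAP the log2 fold changes were 0.23 ± 0.14 for EtOH, where EtOH mouse 2 overlapped with Control, and 0.47 ± 0.15 for EtOH + ABT-888, where no library did.

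The genes of the complexes themselves differed less from Control in total-RNA. For Mtor the log2 fold changes were 0.01 ± 0.10 for EtOH and -0.02 ± 0.11 for EtOH + ABT-888. For Rptor they were -0.27 ± 0.11 and -0.07 ± 0.14, and for Rictor 0.31 ± 0.11 and 0.22 ± 0.11. The 4 EtOH_total-RNA libraries of Rictor, at 138.5 to 167.8 CPM, were above the Control libraries at 113.3 to 133.8 CPM, and those of Rptor, at 54.63 to 67.98 CPM, were below its Control libraries at 68.44 to 77.32 CPM. Tsc1, Tsc2 and Rheb lay between -0.20 (Rheb, EtOH + ABT-888) and 0.05 (Tsc2, EtOH) in total-RNA.

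In TRAP, Mtor was at 97.22, 100.6 and 111.5 CPM in Control, 165.5, 108.4, 135.4 and 151.0 CPM in EtOH, and 161.9, 99.97, 114.3 and 113.5 CPM in EtOH + ABT-888, with log2 fold changes of 0.46 ± 0.16 and 0.26 ± 0.18. EtOH mouse 5 and EtOH + ABT-888 mouse 6 lay within the Control range, so neither group stood fully apart. Rheb was lower, at 133.0 to 140.3 CPM in Control_TRAP against 62.36 to 138.0 CPM in EtOH_TRAP (log2 fold change -0.37 ± 0.22) and 65.42 to 99.07 CPM in EtOH + ABT-888_TRAP (-0.68 ± 0.17). The EtOH + ABT-888_TRAP libraries of Rheb were all below Control_TRAP. Rictor was at 0.36 ± 0.16 and 0.34 ± 0.18 on the log2 fold change scale, Tsc1 at -0.07 ± 0.16 and 0.22 ± 0.18, Tsc2 at 0.23 ± 0.14 and 0.18 ± 0.18, and Rptor at 0.02 in both. Exons of Tsc2 overlap those of Pkd1 on the other strand by 693 bases, and whether the counting used strand is not given in the sources used here, so the level of Tsc2 is uncertain.

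**Figure D2:**
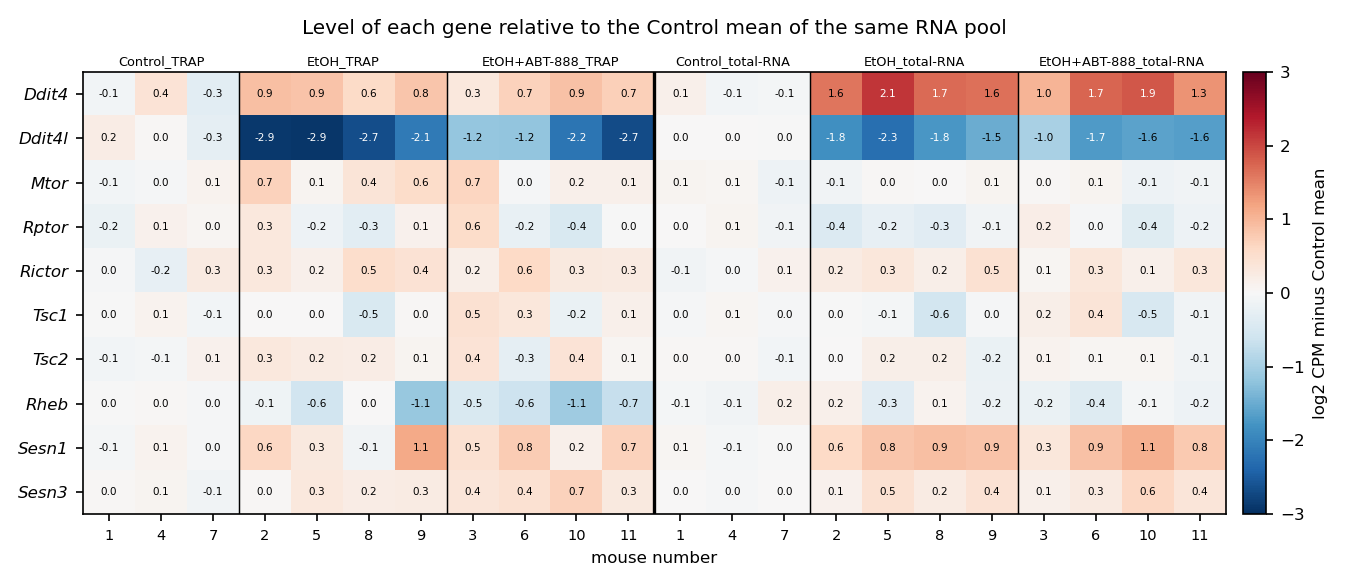
Log2 CPM of the 10 genes (rows) in the 22 libraries (columns, by group and mouse number) minus the mean log2 CPM of the Control libraries of the same pool; red is above Control and blue below. Ddit4l shows the strongest blue in both pools and Ddit4 the strongest red in total-RNA, Sesn1 is red in every treated total-RNA library, and Mtor and Tsc2 stay near 0 in total-RNA.

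Counted by edgeR's quasi-likelihood test at a Benjamini-Hochberg adjusted p under 0.05, 4 of the 10 genes passed in EtOH_total-RNA (Ddit4, Sesn1 and Sesn3 higher, Ddit4l lower), where 17.6% of all genes tested did (9.04% higher and 8.6% lower). In EtOH + ABT-888_total-RNA 2 of 10 passed (Ddit4 and Ddit4l), against 0.263% of all genes. In EtOH_TRAP the same pair passed, 2 of 10 against 5.24% (2.77% higher and 2.47% lower), and in EtOH + ABT-888_TRAP 0 of 10 passed, against 0.476%, with 5 of the 10 at an unadjusted p under 0.05 (12.1% of all genes) and 2 (Ddit4l and Rheb, both lower) called by each of the exactTest (2.26% of all genes) and DESeq2 (2.98%). Since Ddit4 and Ddit4l were chosen on these differences, nothing is read from the counts. Groups did not overlap for 2 and 6 of the 10 genes in EtOH_TRAP and EtOH_total-RNA, against 22.3% and 30.5% of all genes, and for 4 of 10 in each pool of EtOH + ABT-888, against 14% in TRAP and 16.9% in total-RNA. The median log2 fold change of all genes tested was between -0.001 and 0.024 in the 4 comparisons, and both treatments were compared with the same Control libraries.

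The summed level of 6 microglia markers was also lower in treated total-RNA, at 246.7 to 258.6 CPM in Control, 94.47 to 149.2 CPM in EtOH and 85.65 to 199.0 CPM in EtOH + ABT-888, with 4 of 6 called lower in EtOH. The other summed marker lists overlapped between EtOH_total-RNA and Control_total-RNA, except the interneuron list, at 915.0 to 1004 CPM against 802.1 to 865.3 CPM, and the endothelial and pericyte list, at 99.2 to 132.3 CPM against 139.1 to 160.5 CPM. These sums are carried by the most abundant genes, and the excitatory neuron list, whose sums overlapped, differed gene by gene. In EtOH_total-RNA 3 of its 6 markers were called lower (Neurod6 and Nrgn among them), with a median log2 fold change of -0.35, and in EtOH + ABT-888_total-RNA 1 (Neurod6), with a median of -0.22. In TRAP the medians were -0.94 in EtOH, with 1 of 6 called lower (Neurod6), and -1.02 in EtOH + ABT-888, with 2 of 6 called lower (Neurod6 among them). Neurod6 was at 17.67 to 25.37 CPM in Control_TRAP, 3.945 to 9.18 CPM in EtOH_TRAP and 4.221 to 10.33 CPM in EtOH + ABT-888_TRAP, so the treated libraries with low Ddit4l also had low Neurod6. Camk2a was not called in any of the 4 comparisons and was at 1732 to 2029 CPM in Control_TRAP against 2351 to 2799 CPM in EtOH_TRAP. In TRAP the summed levels of all 7 marker lists overlapped between each treated group and Control, and of the other lists P2ry12 of microglia and Drd2 of striatal neurons were called lower in EtOH_TRAP. The part of these markers in the differences of the 10 genes, Ddit4 and Ddit4l in TRAP included, was not tested.

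**Figure D3:**
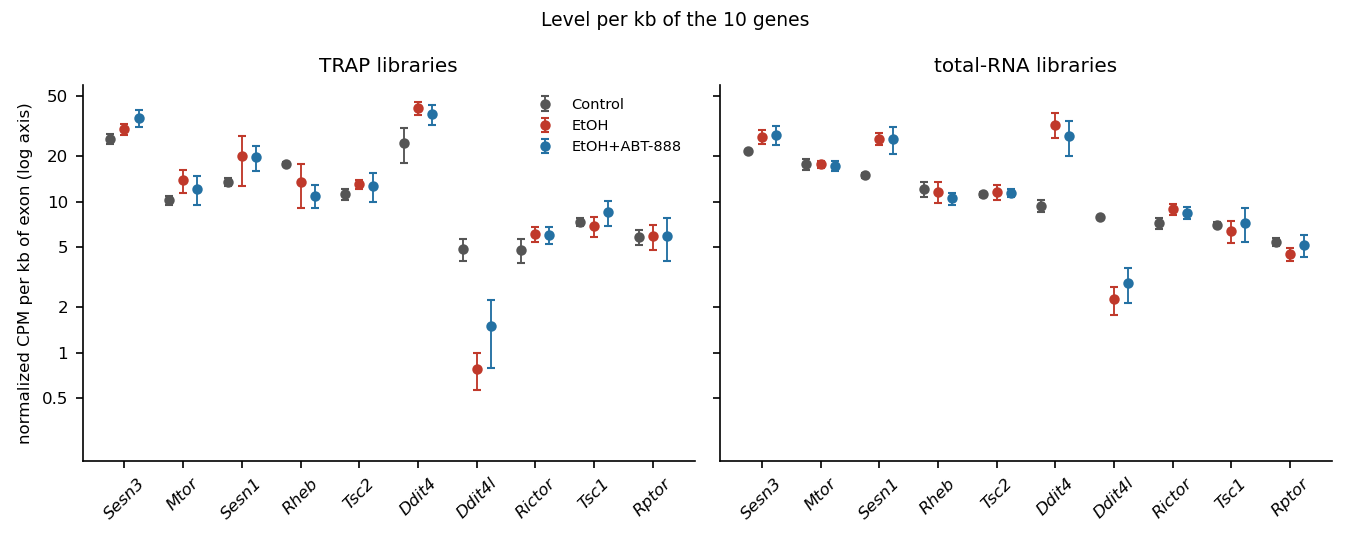
Mean level per kb of exon (log axis) of the 10 genes in TRAP (left) and total-RNA (right), with ± 1 SD over mice, ordered by the level in Control_total-RNA. Ddit4 moves from the sixth place in Control_total-RNA to the first in EtOH_total-RNA, and Ddit4l from the seventh to the last.

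Per kb of exon, the order of the 10 genes in total-RNA changed mainly through Ddit4 and Ddit4l. In Control_total-RNA, Sesn3 was highest at 21.5 ± 0.41 CPM per kb (SD, n = 3), followed by Mtor at 17.6 ± 1.55, Sesn1 at 14.9 ± 0.57, Rheb at 12.1 ± 1.33, Tsc2 at 11.2 ± 0.48, Ddit4 at 9.37 ± 0.84, Ddit4l at 7.87 ± 0.068, Rictor at 7.22 ± 0.62, Tsc1 at 7.03 ± 0.26 and Rptor at 5.43 ± 0.33. The library ranges of Rheb and Tsc2, of Ddit4l and Rictor, and of Rictor and Tsc1 overlapped, so their order is not fixed. In EtOH_total-RNA, Ddit4 was first at 32.3 ± 6.07 CPM per kb (n = 4), with a range that overlapped that of Sesn3 at 26.9 ± 2.90, and Ddit4l was last at 2.25 ± 0.47, below Rptor without overlap.

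In TRAP, Ddit4 was already second in Control, at 24.5 ± 6.41 CPM per kb, with a range that overlapped that of Sesn3 at 26.0 ± 1.84. In EtOH_TRAP it was first at 41.6 ± 4.17, above Sesn3 at 30.0 ± 2.54 without overlap, and in EtOH + ABT-888_TRAP the ranges of Ddit4 (37.9 ± 5.82) and Sesn3 (35.7 ± 4.51) overlapped. Ddit4l was ninth of 10 in Control_TRAP, at 4.85 ± 0.80 and overlapping with its neighbours Rptor and Rictor. It was last in both treated TRAP groups, at 0.785 ± 0.21 and 1.51 ± 0.72, with no overlap with the gene above. Other genes changed place in TRAP too. From Control_TRAP to EtOH_TRAP and EtOH + ABT-888_TRAP, Rheb went from rank 3 to 5 and 6, Mtor from 6 to 4 and 5, and Rictor from 10 to 8 and 8. In the treated groups the ranges of these genes overlapped with the gene below.

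The comparison of TRAP with total-RNA asks which of these transcripts were over- or under-represented on tagged ribosomes. It shares Control and treated values with the comparison on which Ddit4 and Ddit4l were picked. The 10 genes were also chosen with earlier results of these data known. The adjusted p-values are therefore a description, above all for that pair. In Control mice, Ddit4 was 2.59-fold higher in TRAP (log2 fold change 1.37 ± 0.17 SE, adjusted p = 3.5e-05 quasi-likelihood test of edgeR, adjusted after Benjamini-Hochberg, as for every adjusted p of a single gene here). Rheb was higher by 0.53 ± 0.10 (adjusted p = 0.00053) and Sesn3 by 0.25 ± 0.08 (adjusted p = 0.019), although the call of Sesn3 was lost in 3 of 6 fits that left out 1 library (TRAP of mouse 1, or total-RNA of mouse 1 or 4; adjusted p up to 0.07). Lower in TRAP were Mtor, by a log2 fold change of -0.81 ± 0.10 (adjusted p = 3.4e-05), Ddit4l at -0.73 ± 0.14 (adjusted p = 0.00096, but 0.073 when the spread was estimated over all 22 libraries) and Rictor at -0.61 ± 0.13 (adjusted p = 0.0017). For these 6 genes the 3 Control_TRAP libraries did not overlap with the 3 Control_total-RNA libraries. Of all genes tested, 59.9% passed this test and 66.9% did not overlap, so 6 of 10 genes was near the share of all genes. By direction, 3 of 10 were higher (29.5% of all genes) and 3 lower (30.4%). Rptor, Tsc1, Tsc2 and Sesn1 did not pass, with log2 fold changes between -0.15 ± 0.09 (Sesn1) and 0.09 ± 0.11 (Rptor).

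In EtOH mice, 3 of the 10 genes passed, against 50.7% of all genes tested. Ddit4l was 2.90-fold lower in TRAP (log2 fold change -1.54 ± 0.29, adjusted p = 0.0011), Rictor was at -0.57 ± 0.13 (adjusted p = 0.0027) and Mtor at -0.37 ± 0.14 (adjusted p = 0.044). Ddit4 was at 0.35 ± 0.15 (adjusted p = 0.071), with libraries that overlapped. Only Ddit4l and Rictor had no overlap between pools, 2 of 10 against 47.3% of all genes. With the mouse as a block (libraries paired by sample order), 5 of 10 passed, against 58.8% of all genes in the same fit. Ddit4 (0.36, adjusted p = 0.033) and Rptor (0.35, adjusted p = 0.042) joined the 3. The call of Mtor was lost in 6 of 8 fits that left out 1 library (TRAP of mouse 5 or 8, or total-RNA of mouse 2, 5, 8 or 9), with an adjusted p of up to 0.11 and log2 fold changes of -0.45 to -0.26 in edgeR, while those of Ddit4l and Rictor were kept in all 8.

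In EtOH + ABT-888 mice, 2 of 10 passed, against 41% of all genes tested. Mtor was at -0.52 ± 0.16 (adjusted p = 0.025) and Rictor at -0.49 ± 0.14 (adjusted p = 0.015). Ddit4l was at -0.96 ± 0.37 (adjusted p = 0.058), although its TRAP libraries, like those of Rictor, were all below its total-RNA libraries (2 of 10 genes without overlap, against 40.4% of all genes), and Ddit4 was at 0.49 ± 0.20 (adjusted p = 0.076). With the mouse as a block 5 of 10 passed, against 54.3% of all genes in the same fit, adding Ddit4 (0.52, adjusted p = 0.0039), Ddit4l (-1.04, adjusted p = 0.011) and Sesn3 (0.37, adjusted p = 0.0082). The count ranged from 0, without total-RNA of mouse 6, to 4, without TRAP of mouse 3, when 1 library was left out. The call of Mtor was lost in 4 of these 8 fits (TRAP of mouse 6 or 11, or total-RNA of mouse 3 or 6; adjusted p up to 0.074 in edgeR) and that of Rictor in 2 (total-RNA of mouse 6 or 11; up to 0.054).

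**Figure D4:**
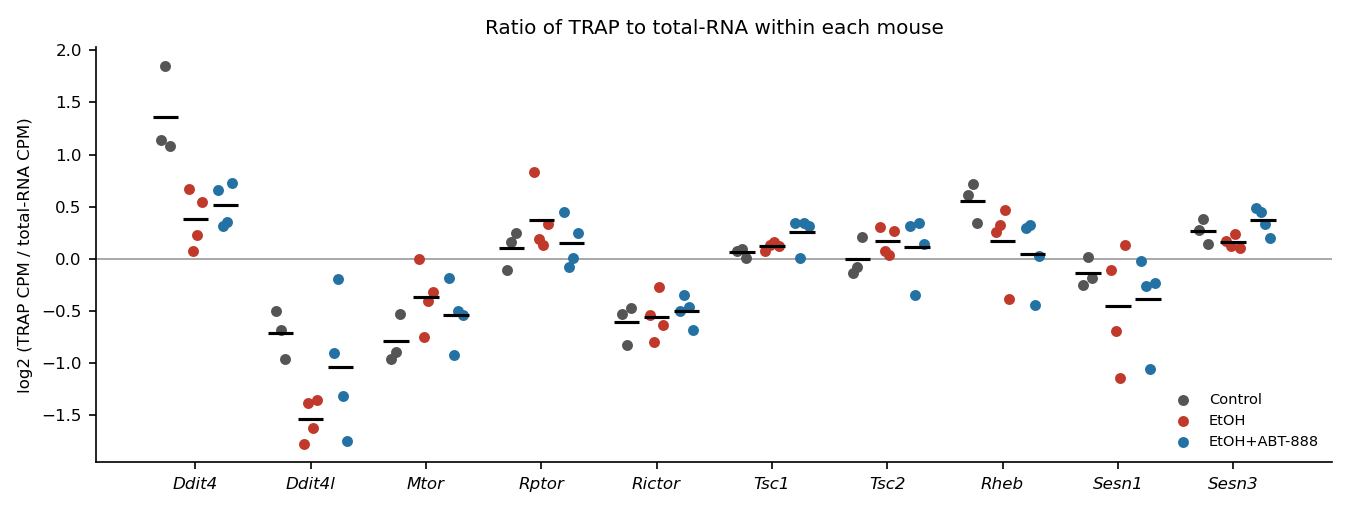
Log2 ratio of TRAP to total-RNA CPM within each mouse for the 10 genes, by treatment. Libraries are paired by sample order, points are mice and black lines are group means. The Ddit4 ratio is above 1 in the 3 Control mice and between 0.071 and 0.727 in the 8 treated mice, and Rictor is below 0 in all 11 mice.

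Within mice, as paired by sample order, the log2 ratio of Ddit4 in TRAP to total-RNA was 1.14, 1.85 and 1.08 in the Control mice. It ranged from 0.071 to 0.673 in EtOH (mean 0.38 ± 0.28 SD, n = 4) and from 0.313 to 0.727 in EtOH + ABT-888 (0.51 ± 0.21), so every treated mouse was below every Control mouse. The mean ratio of Ddit4l was -0.71 ± 0.23 in Control (n = 3), -1.53 ± 0.20 in EtOH and -1.04 ± 0.66 in EtOH + ABT-888, where mouse 6 was at -0.19. Rictor was below 0 in all 11 mice, and Mtor in 10 of 11, with EtOH mouse 2 at 0.00.

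The difference between pools in the response to treatment was fitted as the interaction of treatment and pool over the 22 libraries. It is built from the same treated and Control values on which Ddit4 and Ddit4l were picked, so it is given as a description, without a p-value for the genes. For Ddit4 the response in TRAP was smaller than in total-RNA, with an interaction of -1.02 ± 0.28 (SE) on the log2 scale for EtOH and -0.90 ± 0.28 for EtOH + ABT-888. For Ddit4l it was -0.82 ± 0.42 and -0.27 ± 0.42. The quasi-likelihood test of edgeR called 0 of the 10 genes in both, where it called 0.0213% and 0% of all genes, and at an unadjusted p under 0.05 it counted 2 for EtOH (Ddit4 and Mtor, the latter at 0.44 ± 0.21), against 4.87% of all genes, and 1 for EtOH + ABT-888 (Ddit4), against 3.38%. No alternative run for this interaction, the likelihood ratio test and the mouse as a block included, called any of the 10 genes, and nothing is read from these counts.

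ABT-888 added to EtOH gave no call among the 10 genes in either pool, and none among all genes tested by edgeR's quasi-likelihood test (0% in both). At an unadjusted p under 0.05, 136 of all genes (0.966%) were counted in TRAP and 269 (1.91%) in total-RNA, and 0 of the 10 genes in either. The exactTest of edgeR and DESeq2 called 0 genes in TRAP and 2 genes each in total-RNA, none of them among the 10. The largest difference was that of Ddit4l in TRAP, 0.93 ± 0.45 higher on the log2 scale with ABT-888, with a 95% interval of -0.18 to 2.03. For Ddit4 the difference was -0.14 (interval -0.56 to 0.29) in TRAP and -0.26 (-0.72 to 0.21) in total-RNA, and for Ddit4l in total-RNA it was 0.36 (-0.19 to 0.91). The 8 other genes lay between -0.30 (Rheb) and 0.29 (Tsc1) in TRAP and between -0.14 (Rheb) and 0.20 (Rptor) in total-RNA. The groups overlapped for all 10 genes in both pools, where 0.945% of all genes in TRAP and 1.36% in total-RNA did not overlap. Summed oligodendrocyte markers ran higher in part of the EtOH + ABT-888_TRAP libraries, at 298.3 to 1402 CPM against 294.9 to 682.0 CPM in EtOH_TRAP, and their part in these differences was not tested.

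Beyond the 10 genes, 75 other genes of the mTOR pathway were followed, and 74 passed the filter (Eif4ebp3 did not). In EtOH_total-RNA against Control, 21 of 74 passed the test, 13 higher and 8 lower, or 28.4% against 17.6% of all genes, with a median log2 fold change of 0.07 against 0.00. In EtOH_TRAP 5 of 74 passed (6.8% against 5.24% of all genes, median 0.02 against 0.02). In EtOH + ABT-888_TRAP 0 of 74 passed, against 0.476% of all genes, with 10 at an unadjusted p under 0.05 (12.1% of all genes) and 0 by the exactTest or DESeq2 (2.26% and 2.98%). In EtOH + ABT-888_total-RNA 0 of 74 passed, against 0.263%, with 15 at an unadjusted p under 0.05 (15.9% of all genes) and 4 in each of the exactTest and DESeq2 (3.87% and 4.41%). The count in EtOH_total-RNA was 5, 5, 8 and 11 without total-RNA of Control mouse 1, 4 or 7 or EtOH mouse 5, and 1 when the spread was estimated over all 22 libraries, while the shares of all genes in the same fits were 6.7%, 6.24%, 8.71%, 11.6% and 1.07%. The count in EtOH_TRAP was 0 without any 1 of the 3 Control_TRAP libraries, 1 without EtOH mouse 5 and 12 without EtOH mouse 9, with shares of all genes of 0.597% to 0.796%, 2.64% and 11%.

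Of the amino acid sensors, most of which hold mTORC1 back through their ligands' state, 3 of 5 rose in EtOH_total-RNA: Castor1, an arginine sensor, from 0.78 ± 0.089 to 2.28 ± 0.40 CPM (log2 fold change 1.55 ± 0.27, adjusted p = 0.0031), the third sestrin Sesn2, from 7.63 ± 1.03 to 12.1 ± 2.04 CPM (0.66 ± 0.18, adjusted p = 0.024), and Bmt2, an S-adenosylmethionine sensor (0.46 ± 0.14, adjusted p = 0.037), whose EtOH and Control libraries overlapped. All 3 were higher, where 9.04% of all genes were called higher. The level of Castor1 was low throughout. Of the 11 genes of GATOR and KICSTOR, complexes that carry the amino acid signal to the Rag GTPases, 2 fell, Kptn (-0.59 ± 0.16, adjusted p = 0.028) and Wdr24 (-0.44 ± 0.12, adjusted p = 0.030), and the median was -0.17. The share called, 18.2%, was near the 17.6% of all genes.

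Among 12 genes of the Rag GTPases, Ragulator and the folliculin complex, which place mTORC1 on the lysosome, 3 rose and 2 fell in EtOH_total-RNA, or 41.7% called against 17.6% of all genes (9.04% higher and 8.6% lower). Fnip1 (0.48 ± 0.13), Fnip2 (0.53 ± 0.17) and Rragc (0.36 ± 0.11) were higher and Lamtor4 (-0.65 ± 0.14) and Lamtor2 (-0.38 ± 0.12) lower, with adjusted p-values of 0.0094 to 0.0445 in edgeR's test. Of 8 further complex subunits and assembly factors, Prr5l, a partner of mTORC2 (-0.76 ± 0.21, adjusted p = 0.024), and Tti1 (-0.51 ± 0.12, adjusted p = 0.016) fell, 2 of 8 or 25.0% against 17.6% of all genes, and of Tbc1d7 and Rhebl1 neither passed.

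Of 17 effectors of mTORC1, 5 rose and 1 fell in EtOH_total-RNA, or 35.3% called against 17.6% of all genes. The translation factor Eif4b rose from 214 ± 10.0 to 328 ± 43.1 CPM (0.61 ± 0.11, adjusted p = 0.0036), the elongation factor kinase Eef2k by 0.71 ± 0.13 (adjusted p = 0.0043) and Pdcd4, which restrains translation, by 0.45 ± 0.10 (adjusted p = 0.013), while the autophagy kinase Ulk2 was at -0.52 ± 0.15 (adjusted p = 0.030). In EtOH_TRAP Eif4b (0.78 ± 0.19, adjusted p = 0.035) and Maf1, a repressor of RNA polymerase III (0.68 ± 0.17, adjusted p = 0.041), rose, 2 of 17 against 2.77% of all genes called higher. The exactTest and DESeq2 called 5 of 17 each there, where they called 9.75% and 10.8% of all genes. The list holds both activators and repressors of translation.

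Of 19 kinases and phosphatases upstream, 3 passed in each pool of EtOH mice (15.8%, against 17.6% of all genes in total-RNA and 5.24% in TRAP), and Akt2 fell in both. It went from 60.6 ± 7.78 to 29.8 ± 3.53 CPM in total-RNA (-1.02 ± 0.12, adjusted p = 0.00046) and from 83.7 ± 8.88 to 50.4 ± 5.07 CPM in TRAP (-0.71 ± 0.14, adjusted p = 0.018). Prkab2, a beta subunit of the energy sensor AMPK, rose in both (0.61 ± 0.13, adjusted p = 0.0093, in total-RNA and 0.64 ± 0.16, adjusted p = 0.039, in TRAP). Prkab1, the other beta subunit, rose in TRAP (0.76 ± 0.20, adjusted p = 0.043).

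**Figure D5:**
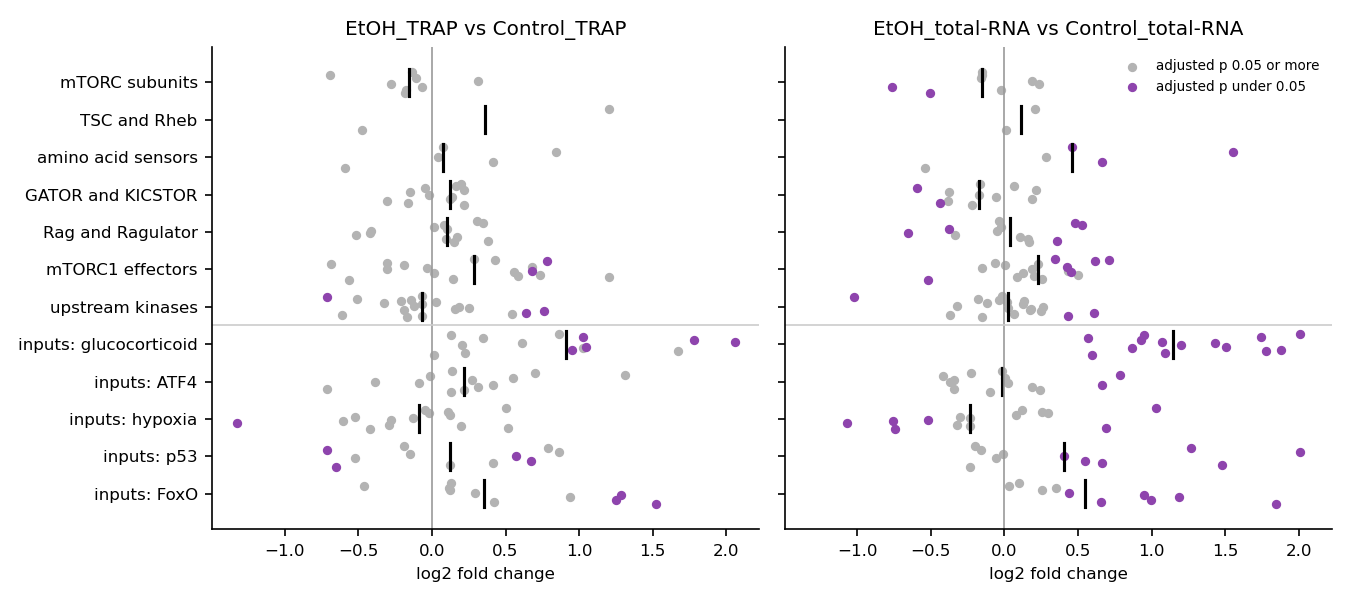
Log2 fold change against Control of the genes of 7 mTOR pathway lists (above the grey line) and 5 lists of transcripts induced by known inputs (below it), in EtOH_TRAP (left) and EtOH_total-RNA (right). Each point is a gene, purple where the adjusted p was under 0.05, and black bars are list medians; the glucocorticoid list lies to the right in total-RNA, with 14 of 14 genes called higher.

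Ddit4 and the sestrins are known targets of several stress inputs, and lists of transcripts induced by each were counted beside them. The lists were chosen with earlier results of these data known, so their counts and p-values are a description. The part of any input in the levels of Ddit4 and the sestrins was not tested. In EtOH_total-RNA, 14 of 14 glucocorticoid-induced transcripts rose, against 9.04% of all genes called higher, with a median log2 fold change of 1.15, and Sgk1 was at 1.88 ± 0.13 (adjusted p = 1.7e-05). Of the p53 list 6 of 11 rose and of the FoxO list 6 of 10, with medians of 0.41 and 0.55, but Cdkn1a stands on both the p53 and the glucocorticoid list. Calls in EtOH_total-RNA depended on the fit. The share of all genes called was 17.6% here, 6.24% to 8.71% without 1 Control library, and 1.07% when the spread was estimated over all 22 libraries. Of the list induced by HIF-1 in hypoxia 2 of 14 rose and 4 fell (8.6% of all genes called lower), and Vegfa (-0.74 ± 0.14, adjusted p = 0.0042) was among those that fell. Of the ATF4 list 2 of 13 rose, and 1 of these, Sesn2, is also on the p53 list. In EtOH_TRAP, 5 of 14 glucocorticoid-induced, 2 of 11 p53 and 3 of 10 FoxO transcripts rose, against 2.77% of all genes called higher. Of the p53 list 2 fell and of the hypoxia list 1 of 14, against 2.47% called lower. Of the ATF4 list 0 of 13 passed (5.24% of all genes), with 1 at an unadjusted p under 0.05 and 1 called by each of the exactTest and DESeq2. Of all 14072 genes, 3249 had an unadjusted p under 0.05 there, and the exactTest and DESeq2 called 9.75% and 10.8%. In EtOH + ABT-888_total-RNA, 3 of 14 glucocorticoid-induced transcripts rose in the quasi-likelihood test, against 0.178% of all genes, while the exactTest called 11 (2.44% of all genes) and DESeq2 10 (2.79%). Their median log2 fold change there was 1.25, against 1.15 in EtOH_total-RNA, and 13 of 14 had an unadjusted p under 0.05 (15.9% of all genes). In EtOH + ABT-888_TRAP 2 of 14 rose (0.185% of all genes), with 5 called by the exactTest (1.02%) and 5 by DESeq2 (1.56%), and the median was 0.83 against 0.91 in EtOH_TRAP. Of the FoxO list 2 of 10 rose in EtOH + ABT-888_total-RNA (4 by the exactTest, 5 by DESeq2, median 0.45) and 1 of 10 in TRAP (2 by each). Of the p53 list 0 of 11 passed in either pool, with 6 at an unadjusted p under 0.05 in total-RNA (15.9% of all genes) and 4 in TRAP (12.1%). The exactTest and DESeq2 called 3 each in total-RNA, all higher (2.44% and 2.79% of all genes), and 0 in TRAP. Of the hypoxia list 1 of 14 fell in TRAP (1 by each of the exactTest and DESeq2), where 0.476% of all genes passed (2.26% and 2.98% in the latter 2). In total-RNA 0 passed, against 0.263%, with 5 at an unadjusted p under 0.05 (15.9% of all genes), 4 by the exactTest (3.87%) and 5 by DESeq2 (4.41%). Of the ATF4 list 0 of 13 passed in either pool. In each, 2 had an unadjusted p under 0.05, near the share of all genes (15.9% in total-RNA and 12.1% in TRAP). The exactTest called 0, and DESeq2 called 1 in TRAP (2.98% of all genes) and 0 in total-RNA (4.41%).

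The genes whose pattern over the 22 libraries was most like that of Ddit4 were sought among all genes tested, by the root mean square difference of log2 CPM after each gene was set to its Control mean in the same pool. The 5 nearest were Fkbp5 (0.193), Sgk1 (0.241), Zfp189 (0.328), Nfkbia (0.367) and Spns2 (0.385), where Ddit4 itself lay 1.10 from its Control means. For Ddit4l, which lay 1.72 from its Control means, they were Robo3 (0.529), Nrep (0.611), Myl4 (0.625), Mettl16 (0.664) and Srpk1 (0.672), so the likeness was looser. Robo3 was at 2.81 CPM or less on average in total-RNA and 3.51 CPM or less in TRAP. All of these points share their libraries and the treatment that chose Ddit4 and Ddit4l, and the list is a description.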

How the data were processed

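PFC RNA of 11 mice was sequenced as TRAP and total-RNA libraries. The authors aligned reads to mm10 with STAR and counted them per Ensembl gene with featureCounts, and the deposited values are raw counts. Versions, the strand setting and the handling of reads with several matches are not given in the sources used here. Groups followed the labels, which give the treatment and the pool but not the mouse. Replicate numbers follow the order of the samples within each pool, so which TRAP and total-RNA libraries share a mouse is inferred. Genes with at least 500 counts over 22 libraries and detected in at least 3 were tested with edgeR 4.0.16 (glmQLFit, glmQLFTest, TMM factors, Benjamini-Hochberg over all 14072 genes, threshold 0.05), each comparison on its 2 groups and the interaction on all. The tests were checked on simulated data. Of 39056 identifiers, 38872 were named from GENCODE M21, which also gave exon lengths. SDs are over mice. SEs come from the edgeR fit, and in TRAP against total-RNA and in the interaction they treat the libraries of a mouse as separate unless the mouse is a block. Samples with the same number deviated together (r = 0.102 to 0.622), and replicates differed beyond counting noise. The 10 genes, the lists and the genes named were chosen with earlier results of these data known. Named from each list were up to 3 called genes per direction with the smallest p, and 5 genes of like pattern each for Ddit4 and Ddit4l. Some genes of the lists are not reported here by name. Alternatives were RLE factors, no filter, exactTest, DESeq2 1.42.0, a single fit, the mouse as a block, the likelihood ratio test, and leaving out each library.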

Additional observations from a re-analysis of the deposited data

Results flagged for a closer look

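In 40 sets of 4 libraries (the 10 genes in 4 treated groups), 4 had a library far from the other 3 by Dixon's criterion for 4 values, where chance gives about 1 in 20. Ddit4 was highest in EtOH_total-RNA mouse 5, at 72.44 CPM. Ddit4l was highest in EtOH + ABT-888_total-RNA mouse 3, at 11.66 CPM. Tsc1 was lowest in mouse 8 of the EtOH group in both pools, at 63.3 CPM in TRAP and 56.53 CPM in total-RNA.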

How the results depend on the processing

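The log2 fold changes of Ddit4 and Ddit4l against Control kept their sign under every alternative. Without 1 library they ranged from 0.63 to 1.01 and from -2.81 to -2.49 in EtOH_TRAP, and from 0.50 to 0.86 and -1.92 to -1.46 in EtOH + ABT-888_TRAP. They ranged from 1.65 to 1.86 and -1.94 to -1.68 in EtOH_total-RNA, and from 1.395 to 1.67 and -1.64 to -1.37 in EtOH + ABT-888_total-RNA. For Ddit4 in EtOH_TRAP the move from 0.785 to 1.01 was larger than its SE of 0.18. Of the 10 genes in TRAP against total-RNA, the replicate block (the mouse) gave 5 calls in EtOH and 5 in EtOH + ABT-888, and the single fit over all libraries gave 5 in EtOH + ABT-888 (51.6% of all genes), where leaving out 1 library gave 0 to 4. That single fit did not call Ddit4l (-0.70, adjusted p = 0.073 in edgeR) or Sesn3 (0.27, adjusted p = 0.11) in Control mice. Without TRAP mouse 3, Rptor (-0.041, range -0.041 to 0.31) and Rheb (-0.024, range -0.024 to 0.157) changed sign in EtOH + ABT-888. Pathway genes called in EtOH_TRAP numbered 11 with no filter, 12 by exactTest, 13 by DESeq2, 10 in the single fit (6.13%, 9.75%, 10.8% and 8.46% of all genes) and 0 to 12 without 1 library; in EtOH + ABT-888_TRAP 0 to 1 without 1 library; in EtOH_total-RNA 1 in the single fit (1.07% of all genes) and 5 to 27 without 1 library (5 without Control mouse 1 or 4); and in EtOH + ABT-888_total-RNA 4 with no filter, 4 by exactTest, 4 by DESeq2 (1.99%, 3.87% and 4.41% of all genes) and 0 to 7 without 1 library (7 without mouse 3, 6.18% of all genes). The cause was not tested. Over 110 differences of the 10 genes, 23 changed sign under some alternative, none of them called, and the largest was 0.19 in size. The block changed no other call count of the 10 genes. With 3 or 4 mice a group and TRAP depth down to 6570957 reads, small differences of Ddit4l in TRAP cannot be resolved.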
